A study of Homo sapiens with 2 samples.

Results

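The genes of mitochondrial fatty acid oxidation were examined in the human glioblastoma cell line U87 after activation of the liver X receptors (LXRs), nuclear receptors that sense oxidised cholesterol. The group was chosen by symbol and holds 10 of the 22458 named genes on the array: ACSL1 for acyl activation, CPT1A, CPT1C, CPT2 and SLC25A20 for the carnitine shuttle, ACADM, ACADVL, HADHA and HADHB for beta-oxidation, and ETFDH for the transfer of electrons to the respiratory chain. All 10 were measured, each by 1 probe set, and all 10 passed the filter on low values. Cells were given 20 µM LXR623, a synthetic LXR agonist, for 24 h, or 0.1% DMSO, the solvent, for the same time, both per the labels in medium with reduced serum. Each treatment was measured on 1 array (n = 1 per group), without replicates, so that the differences given here come with no test and no error between samples, and their precision is limited by the number of arrays.

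Long-chain fatty acids enter this pathway as acyl-CoA esters. CPT1 on the outer mitochondrial membrane swaps the CoA for carnitine, a translocase carries the acylcarnitine inwards, and CPT2 restores the CoA ester in the matrix. Repeated rounds of dehydrogenation, hydration, a second dehydrogenation and thiolysis then release acetyl-CoA, and the electrons of the first step reach ubiquinone through the electron transfer flavoprotein and its dehydrogenase. Malonyl-CoA, the first product committed to fatty acid synthesis, inhibits CPT1, so that synthesis and oxidation are set against each other in many tissues.

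The labelled cell line was looked at first. The title, source and cell line labels name U87, whereas the culture text names HCT116, a colon carcinoma line. Above the median were the same 5 of 12 astrocyte and glioma markers on both arrays. Of the 12 colon epithelial markers, 3 were above it on each array, but not the same 3. The 5 were VIM (12.5 with LXR623, 12.1 with DMSO), CD44 (10.8 with LXR623, 11.0 with DMSO), TNC (10.6 with LXR623, 10.9 with DMSO), SLC1A3 and NES. SLC1A3 was at 6.87 with LXR623 and 7.76 with DMSO, 1.85-fold lower (2.01% of all kept genes were at least 1.5-fold lower). At log2 8 or higher on each array were 3 of the 12 astrocyte and glioma markers and 0 of the 12 colon markers. The conflict was not resolved from these values, since levels of different probe sets are not comparable. The defining astrocyte genes GFAP (4.68 with LXR623, 4.76 with DMSO) and S100B (2.65 with LXR623, 2.54 with DMSO) were below the medians of the arrays, which were 4.92 for LXR623 and 4.88 for DMSO, as were SOX2 (2.69 with LXR623, 2.56 with DMSO) and AQP4 (2.97 with LXR623, 2.73 with DMSO). ABCA1, a cholesterol exporter switched on by LXR, was at 10.1 with LXR623 against 8.30 with DMSO, a 3.46-fold difference.

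Promoter sequences of the members were taken from RefSeq (GRCh38.p14), as windows of 250 bases before and 50 after a start site, which matched 9 of the 10 members (not ETFDH) with 16 windows. They are shown for the divergent pair HADHA and HADHB, whose start sites lie 307 bases apart and whose windows share 194 of 300 bases, and for CPT1A and CPT2, the enzymes at the outer and inner end of the shuttle; which windows to show was decided after the values were seen. The HADHB window (chr2:26244689-26244988, plus strand) has the part shared with the HADHA window, which reads on the opposite strand, in capitals. The CPT2 window (chr1:53196574-53196873, plus strand) has each match to the GC box GGGCGG, on either strand, in capitals. In the CPT1A window (chr11:68844228-68844527, minus strand) no base is in capitals, because it held no match to that motif.
HADHB: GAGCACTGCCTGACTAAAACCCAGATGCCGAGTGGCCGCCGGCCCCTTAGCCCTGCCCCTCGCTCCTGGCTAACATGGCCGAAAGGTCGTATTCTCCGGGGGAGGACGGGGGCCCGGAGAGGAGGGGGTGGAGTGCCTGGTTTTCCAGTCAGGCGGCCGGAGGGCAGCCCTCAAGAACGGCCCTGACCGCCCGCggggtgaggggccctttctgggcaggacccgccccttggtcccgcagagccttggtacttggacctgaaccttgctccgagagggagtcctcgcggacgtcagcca
CPT2: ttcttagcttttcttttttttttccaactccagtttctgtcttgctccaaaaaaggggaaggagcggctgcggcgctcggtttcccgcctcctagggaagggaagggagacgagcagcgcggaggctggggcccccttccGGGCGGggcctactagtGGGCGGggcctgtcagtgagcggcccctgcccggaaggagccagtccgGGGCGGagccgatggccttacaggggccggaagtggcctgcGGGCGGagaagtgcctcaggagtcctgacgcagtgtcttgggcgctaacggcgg
CPT1A: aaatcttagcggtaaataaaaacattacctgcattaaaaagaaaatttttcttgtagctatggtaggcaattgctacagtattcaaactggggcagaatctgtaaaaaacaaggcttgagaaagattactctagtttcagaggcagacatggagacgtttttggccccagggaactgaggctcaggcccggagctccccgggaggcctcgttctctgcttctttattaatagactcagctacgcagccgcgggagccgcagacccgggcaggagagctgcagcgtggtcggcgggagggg

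Of the 9 members with a window, 8 had a GC box match in at least 1 window, with 4 matches in that of CPT2, 4 in ACADM and 3 in SLC25A20. Counted by window, 10 of the 16 member windows held the motif, as did 45% of all 35116 windows of the same length. Some members have several windows and so more chances of a match, which makes the count by gene unlike that share. The 1 match in the HADHA window lies in the bases shared with HADHB and is counted for both. G and C made up 50% of the CPT1A window, 65.0% of the CPT2 window and 68.0% of the HADHB window, against a median of 58.7% over all windows. The nuclear receptor half-site AGGTCA, searched on both strands, was in 13.8% of all windows and in 0 of the 16 member windows. Its direct repeats AGGTCANAGGTCA and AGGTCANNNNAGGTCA, which contain the half-site and therefore overlap with it, were in 0.0228% and 0.0199% of all windows and in 0 of the member windows. The repeats are so rare over all windows that 0 among 16 carries no information. These matches describe exact letters in short windows, and elements that differ in a base or lie elsewhere in the genes were not searched.

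Values are log2 expression made by the authors with RMA, a method that scales arrays to a common distribution, and differences are log2 LXR623 minus log2 DMSO. After such scaling, a change in the amount of RNA per cell cannot be told apart from none. Most members were at nearly the same value on both arrays. With LXR623, 4 members were higher and 6 lower, with a median difference of -0.026 and a range from -0.53 to 0.19. Over the 16902 genes kept by the level filter the median difference was 0 and the quartiles lay at -0.15 and 0.17, with 48.3% of genes lower. None of the 10 members differed at least 1.5-fold in either direction (0 higher, 0 lower). Over all kept genes the share was 4.38% (402 higher and 339 lower, or 319 higher and 427 lower with each array centred on its median), and 0 of 10 is near that background. For 6 of the 10 members the difference was smaller than 0.1 in size, as it was for 32.5% of kept genes.

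**Figure D1:**
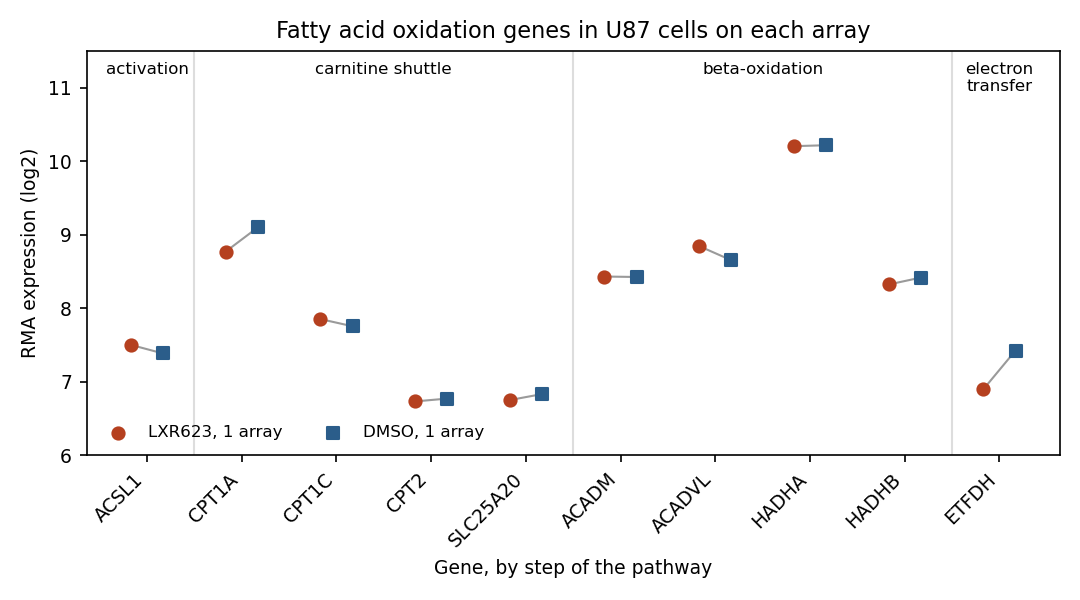
RMA expression (log2, vertical axis) of the 10 members on the LXR623 array (circles) and the DMSO array (squares), 1 array per group, ordered by step of the pathway. Heights of different genes depend on their probes and are not comparable; within genes, ETFDH (6.90 with LXR623, 7.43 with DMSO) and CPT1A (8.77 with LXR623, 9.10 with DMSO) lie farthest apart.

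Acyl activation was represented by ACSL1, a long-chain acyl-CoA synthetase. ACSL1 was at 7.50 with LXR623 and 7.39 with DMSO, a difference of 0.12. To show how widely single genes scattered, each member was set beside the 500 kept genes nearest to it in level, whose central 95% ran from -0.53 to 0.44 around ACSL1, and 107 of the 500 were higher than it.

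In the carnitine shuttle, 3 of the 4 members were lower with LXR623 and 1 was higher. CPT1A, the CPT1 isoform of liver and most other tissues and the step that malonyl-CoA inhibits, was at 8.77 with LXR623 and 9.10 with DMSO, 1.26-fold lower (difference -0.33). That placed it 1537th from the lowest of 16902 genes, and 28 of the 500 genes of like level were lower still, so that it lay inside their central 95% (-0.41 to 0.49). A difference of this size or larger, in either direction, was seen for 19.4% of kept genes.

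CPT1C, a CPT1 relative found mainly in neurons and placed at the endoplasmic reticulum, with little acyltransferase activity, pointed the other way. It was at 7.85 with LXR623 and 7.76 with DMSO, a difference of 0.098. CPT1B, the muscle isoform, was not analysed here. SLC25A20, the carnitine-acylcarnitine translocase of the inner membrane, was at 6.75 with LXR623 and 6.83 with DMSO (difference -0.081), and CPT2 at 6.73 with LXR623 and 6.77 with DMSO (difference -0.039). CPT2 stood near the middle of genes of its level, with 249 of 500 lower and 251 higher. The 2 inner-membrane steps thus differed less between the arrays than CPT1A did.

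The 4 beta-oxidation enzymes were split, with 2 higher and 2 lower and a median of -0.0033. ACADVL, the very-long-chain acyl-CoA dehydrogenase that starts the cycle for long chains, was at 8.84 with LXR623 and 8.65 with DMSO. This difference of 0.19, or 1.14-fold, was the highest among the members, and 64 of 500 genes of like level were higher. ACADM, the medium-chain dehydrogenase, was at 8.43 with LXR623 and 8.42 with DMSO (difference 0.0063), and with each array centred on its median its difference was -0.034, so it has no settled direction.

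HADHA and HADHB encode the alpha and beta subunits of the mitochondrial trifunctional protein, which carries out the remaining steps of the cycle for long chains. HADHA was at 10.2 on both arrays (difference -0.013), and HADHB at 8.32 with LXR623 and 8.42 with DMSO (difference -0.094). HADHA was thus 1.01-fold and HADHB 1.07-fold lower. Differences at least as large, in either direction, were seen for 94.2% of kept genes (HADHA) and 69.1% (HADHB), so no shared direction is read from them. Among genes of like level, 243 of 500 were lower than HADHA and 176 of 500 lower than HADHB.

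ETFDH, which passes electrons from the electron transfer flavoprotein to ubiquinone, stood farthest from zero. It was at 6.90 with LXR623 and 7.43 with DMSO, 1.44-fold lower (difference -0.53). It was 498th from the lowest of 16902 genes, and 6.35% of kept genes differed by as much in either direction. Of 500 genes of like level 14 were lower still, and the value lay just inside their central 95% (-0.54 to 0.56). With the nearest 250 genes, a number tried after the values were seen, it lay outside.

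**Figure D2:**
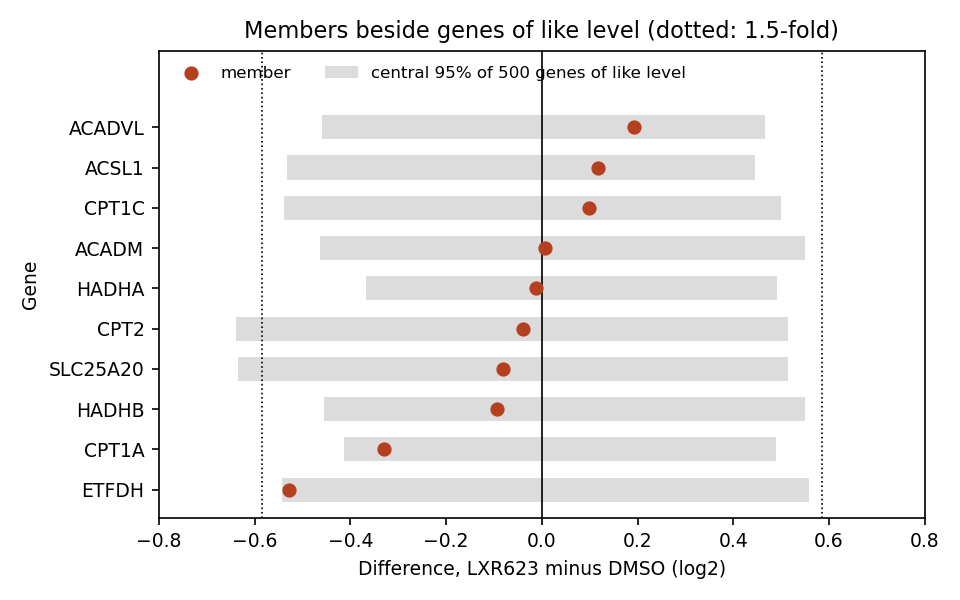
Difference of each member (points; LXR623 minus DMSO, log2, horizontal axis) over the central 95% of the differences of the 500 genes nearest in level (grey bars, which describe scatter among genes on these 2 arrays and are not errors of replicates). All 10 points lie inside their bars and between the dotted 1.5-fold lines, with ETFDH at -0.53 close to the lower end of its bar.

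Other genes of the same pathway were examined from lists by role. The further matrix enzymes, among them the short-chain dehydrogenases, hydratases, isomerases and thiolase, had 10 kept members with a median of -0.048, 4 of them higher and 6 lower, and none at least 1.5-fold different. ECH1, a dienoyl-CoA isomerase of mitochondria and peroxisomes, was at 9.79 with LXR623 and 9.46 with DMSO (0.33). The enoyl-CoA isomerases ECI2 and ECI1 differed by -0.17 and 0.16, and HADH, the dehydrogenase for short chains, by -0.17. In 9 of these 10 genes the difference was below 0.2 in size.

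Genes beside ETFDH in electron transfer did not share a direction. Of 6 kept genes in this list 3 were higher and 3 lower, with a median of 0.05. ETFA and ETFB, the subunits of the flavoprotein itself, differed by -0.16 and 0.16, and FLAD1, which makes FAD, by 0.14. ETFRF1, a regulator of the flavoprotein, was at 6.33 with LXR623 and 6.94 with DMSO, 1.52-fold lower (difference -0.61). It was the 1 gene in the list past 1.5-fold (2.01% of all kept genes were at least 1.5-fold lower), and 12 of 500 genes of like level were lower still.

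Around the carnitine shuttle, 5 genes were kept, 2 higher and 3 lower, with a median of -0.17 and none past 1.5-fold. CROT, the peroxisomal carnitine octanoyltransferase, was at 6.41 with LXR623 and 6.95 with DMSO (difference -0.54). TMLHE, the first enzyme of carnitine synthesis, was at 6.59 with LXR623 and 7.05 with DMSO (difference -0.46), and ALDH9A1, a later enzyme of the same route, differed by -0.17. SLC22A5, the carnitine transporter of the plasma membrane, was in contrast higher at 5.97 with LXR623 against 5.61 with DMSO (difference 0.36). The median rests on few genes, and without CROT it was -0.028.

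The members and these 3 lists together made 31 kept genes of 35 listed, with 13 higher, 18 lower and a median of -0.039. Of the 31, 5 had differences of -0.3 or lower (ETFRF1, CROT, ETFDH, TMLHE and CPT1A), against 10.9% of all kept genes, and 2 had differences of 0.3 or higher (SLC22A5 and ECH1), against 12.2% of all kept genes. The limit of 0.3 was chosen after the values were seen, and CROT, counted here, is peroxisomal, so nothing is read from these counts.

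**Figure D3:**
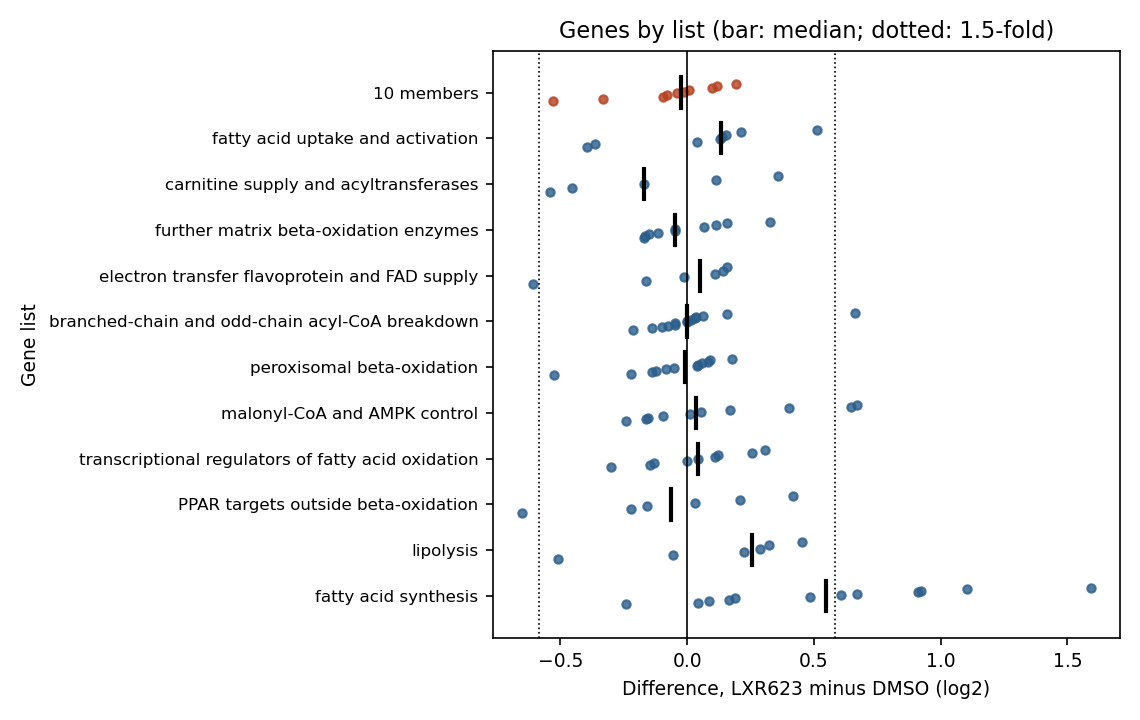
Differences (LXR623 minus DMSO, log2, horizontal axis) of the kept genes in the 10 members and in 11 related lists (1 point per gene; thick bar, median; dotted lines, 1.5-fold). The medians lie at -0.026 for the members, -0.17 for carnitine supply and acyltransferases, the lowest of those drawn, and 0.55 for fatty acid synthesis, the highest.

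Upstream of the mitochondrion, 8 genes of fatty acid uptake and activation were kept, 6 higher and 2 lower, with a median of 0.13, a mean of 0.053 and none past 1.5-fold. Without the level filter the median was 0.039. FABP3, a fatty acid binding protein, was at 4.58 with LXR623 and 4.07 with DMSO (difference 0.51), and ACSL5, another long-chain synthetase, at 3.95 with LXR623 and 4.35 with DMSO (difference -0.39). FABP7 differed by -0.36 and the acyl-CoA synthetase SLC27A4 by 0.21. FABP3, ACSL5 and FABP7 were at low levels, below the median of each array. In lipolysis, which frees fatty acids from stored triglyceride, 4 of 6 genes were higher, with a median of 0.25 and a mean of 0.12. G0S2, an inhibitor of adipose triglyceride lipase, was at 5.64 with LXR623 and 6.15 with DMSO (difference -0.51). The lipases LIPE, MGLL and PNPLA2 differed by 0.45, 0.32 and 0.29, and none of the 6 genes reached 1.5-fold.

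Peroxisomes shorten very long and branched fatty acids by a parallel route. Its 12 kept genes were evenly divided, 6 higher and 6 lower, with a median of -0.0073 and none past 1.5-fold. EHHADH, the bifunctional enzyme, was at 4.28 with LXR623 and 4.81 with DMSO (difference -0.52), catalase (CAT) differed by -0.22, PHYH by 0.18 and ACOX2 by -0.14. EHHADH and ACOX2 were below the median of each array. The breakdown of branched-chain amino acids and odd-chain fatty acids had a median of -0.0013 over 14 genes. MCEE, methylmalonyl-CoA epimerase, was at 6.53 with LXR623 and 5.87 with DMSO, 1.58-fold higher (difference 0.66). It was the 1 gene of that list past 1.5-fold (2.38% of all kept genes were at least 1.5-fold higher). MCCC1 differed by -0.21, ACAD8 by 0.16 and HIBADH by -0.14.

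Of the control of CPT1 by malonyl-CoA, 10 genes were kept, 6 higher and 4 lower, with a median of 0.034. At least 1.5-fold higher were 2 of them, ACACA and PRKAG3, and 2.38% of all kept genes. ACACA, the cytosolic acetyl-CoA carboxylase that makes malonyl-CoA for synthesis, was at 8.54 with LXR623 and 7.87 with DMSO, 1.59-fold higher (difference 0.67). ACACB, the isoform attached to mitochondria whose malonyl-CoA acts on CPT1, was at 6.01 with LXR623 and 6.25 with DMSO (difference -0.24). MLYCD, which removes malonyl-CoA, was at 5.46 with LXR623 and 5.56 with DMSO (difference -0.09). The 2 carboxylases thus pointed in opposite directions on these arrays. Among subunits of AMPK, the kinase that inhibits both carboxylases, PRKAG3 was at 4.22 with LXR623 and 3.58 with DMSO, 1.56-fold higher (difference 0.64) at a low level close to the filter at 3.39, and PRKAB2 differed by 0.40. The catalytic subunits PRKAA1 and PRKAA2 differed by -0.16 and -0.15.

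Transcription factors that drive fatty acid oxidation had a median of 0.044 over 9 genes, none past 1.5-fold. PPARA, the receptor that fatty acids activate in liver, was at 6.85 with LXR623 and 6.55 with DMSO (difference 0.31), and its coactivator PPARGC1A was at 7.34 with LXR623 and 7.64 with DMSO (difference -0.30). RXRB and RXRA, partners of both PPARs and LXRs, differed by 0.26 and -0.15. Among 6 kept PPAR targets outside beta-oxidation 3 were higher and 3 lower, with a median of -0.064, or 0.029 without PDK4. PDK4, the kinase that turns off pyruvate dehydrogenase when fatty acids are burned, was at 3.80 with LXR623 and 4.46 with DMSO, 1.57-fold lower (difference -0.65), at a low level. ACOT2, a mitochondrial acyl-CoA thioesterase, differed by 0.42, UCP2 by -0.22 and FGF21 by 0.21. FGF21 was also at a low level, below the median of each array. ACOT2 has a near-identical copy, ACOT1, so its value is uncertain.

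Fatty acid synthesis was measured alongside. In this list of 12 kept genes 11 were higher and 1 lower, with a median of 0.55, against 4 higher, 6 lower and a median of -0.026 for the oxidation genes. At least 1.5-fold higher were 6 of the 12 synthesis genes and 0 of the 10 oxidation genes, where 2.38% of all kept genes were. SCD, the stearoyl-CoA desaturase, was at 10.9 with LXR623 and 9.34 with DMSO, and the others past the threshold were FADS2 (1.10), FASN (0.92), SREBF1 (0.91), ACACA (0.67) and ELOVL6 (0.61). Below the threshold were FADS1 (0.49), ELOVL5 (0.19), ACSS2 (0.16), ACLY (0.087), SLC25A1 (0.043) and ACACB (-0.24). The list also holds desaturases and elongases (SCD, FADS1, FADS2, ELOVL5 and ELOVL6), so the median of 0.55 does not describe the synthesis enzymes alone. Both sets were not built alike: the synthesis list includes the transcription factor SREBF1, whereas regulators of oxidation were listed apart. ACACA is counted here and among the genes of malonyl-CoA control. With 1 array per group, the difference between both lists was not tested. Both lists were chosen with earlier results of these data known, so their contrast is no independent result.

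**Figure D4:**
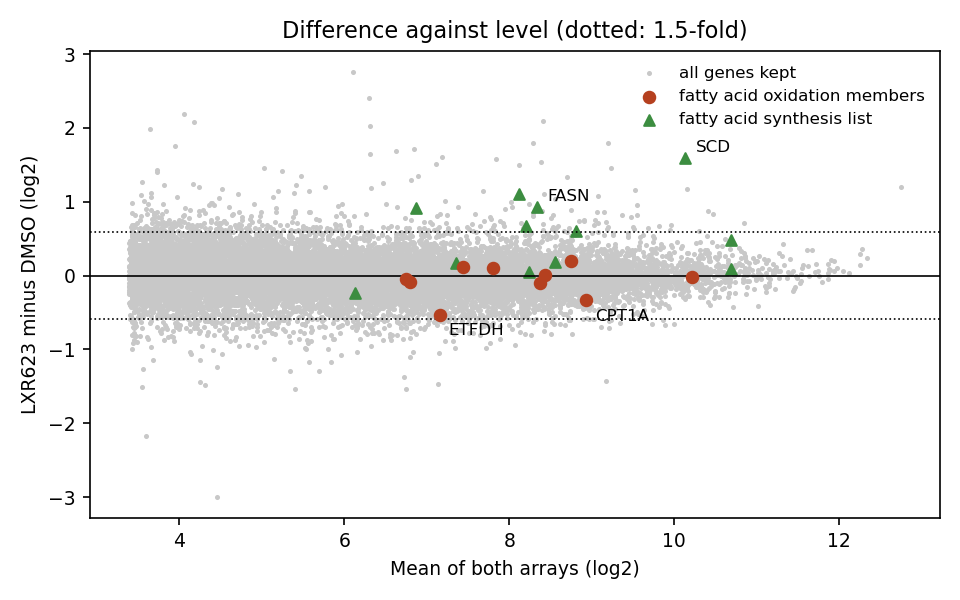
Difference (LXR623 minus DMSO, log2, vertical axis) against the mean of both arrays (log2, horizontal axis) for 16902 kept genes (grey), the 10 oxidation members (circles) and the 12 kept genes of fatty acid synthesis (triangles). All circles lie between the dotted 1.5-fold lines, from -0.53 (ETFDH) to 0.19 (ACADVL), and 6 triangles lie above the upper line, up to SCD at 1.59. The triangles include desaturases, elongases and SREBF1.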

How the data were processed

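Total RNA of U87 cells given LXR623 or DMSO was labelled with biotin using a whole-transcript reagent kit, and 1 array was run per group. The deposited table gives 1 log2 value for each probe set and array, made by the authors with RMA; the processing notes of the submitters also name affy 1.36.1 and R 2.15.1. RMA removes shifts shared by most genes and compresses differences of dim probe sets. A genome build was not given in the sources used here. Of 23786 probe sets 22458 had 1 symbol each and 1328 had none and were left out.

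A gene entered the counts where the mean of its LXR623 and DMSO values was at or above log2 3.39, the 25th percentile over the whole table; 16902 genes did. No test exists with 1 array per group, and no p-value was computed. Lists were described by counts and medians beside those of all kept genes, and single genes beside the 500 genes nearest in level. Up to 4 genes per list with the largest differences were named, besides every gene at least 1.5-fold different and the members. A few genes were named for their role (the AMPK catalytic subunits, MLYCD and cell type markers), and of fatty acid synthesis all kept genes were named. The members and lists were chosen with earlier results of these data known. The calculation of differences and counts was checked on simulated data. Python 3.11.15, numpy 2.4.6, pandas 2.3.3, statsmodels 0.14.6 and matplotlib 3.10.9 were used. Alternatives were median centring, removal of a lowess curve on level (span 0.3), no level filter, a stricter one at the 50th percentile, list means, leaving out the most extreme gene and a 2-fold threshold.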

Additional observations from a re-analysis of the deposited data

How the results depend on the processing

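The median of the 10 members stayed between -0.067 (the mean in place of the median) and -0.013 under all alternatives run, and 0 members passed 1.5-fold under any of them, nor 2-fold. Median centring, which lowers every difference by 0.040, gave 3 members higher and 7 lower, because ACADM turned. The shifts made by both scalings were small beside the scatter of genes of like level, so they say little about stability. Of 94 list medians, 6 moved by more than the SD of genes of like level divided by the root of the number of genes. Without the level filter, or without its most extreme member, carnitine supply and acyltransferases was at -0.028. The mean gave -0.062 for the electron transfer list, -0.027 for ketone body metabolism, 0.13 for malonyl-CoA and AMPK control and 0.12 for lipolysis. The filter at the 50th percentile left 218 genes higher and 218 lower, as fewer entered, and the 2-fold threshold 57 higher and 28 lower, by construction. Medians near 0 had no settled direction. That of peroxisomal beta-oxidation turned to 0.026 with lowess, 0.041 with the stricter filter and 0.038 without EHHADH, and that of branched-chain and odd-chain breakdown to 0.028 with lowess and 0.024 as a mean. Malonyl-CoA and AMPK control turned to -0.0061 with median centring, PPAR targets to 0.029 and acyl-CoA thioesterases to -0.022 without their most extreme gene. What moved the remaining values was not tested. With 250 or 1000 genes of like level, numbers chosen after the data were seen, 1 of 20 member values changed side (ETFDH with 250). For ketone body metabolism, neither the stricter filter nor leaving out its most extreme gene was run, since fewer than 3 genes would remain. No paired analysis was possible because LXR623 and DMSO were each measured on a single array. Signal over background was not analysed here.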

Other observations

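Acceptors and side routes of fatty acid oxidation were also measured. Genes of coenzyme Q synthesis, which make the ubiquinone that ETFDH reduces, had a median difference of -0.15 over 11 genes, with 3 higher, 8 lower and none at least 1.5-fold different. PDSS1, which builds the isoprenoid tail, was at 5.68 with LXR623 and 6.20 with DMSO (difference -0.52), the methyltransferase COQ3 differed by -0.45, COQ8A by -0.27 and COQ4 by 0.33. Complex III, which oxidises ubiquinol, had a median of -0.08 over 7 kept genes, 2 higher and 5 lower, with UQCRB at -0.24, UQCR11 at 0.17, UQCRQ at -0.11 and CYC1 at 0.10.

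Ketone body metabolism had 3 kept genes and a median of -0.24. ACAT1, the mitochondrial acetoacetyl-CoA thiolase, was at 6.43 with LXR623 and 6.72 with DMSO, and OXCT1, which activates acetoacetate, at 9.38 with LXR623 and 9.62 with DMSO. BDH1 was at 4.06 with LXR623 and 3.62 with DMSO, close to the level of the filter. Acyl-CoA thioesterases, which release free fatty acids, had a median of 0.048 over 6 genes, or -0.022 without ACOT2, with ACOT2 at 0.42, ACOT9 at 0.15, ACOT7 at 0.12 and ACOT13 at -0.09. The peroxisomal transporter ABCD2, named after its value was seen, was at 2.71 with LXR623 and 3.51 with DMSO, and its mean lay below the filter.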
